A study of Mus musculus with 12 samples.

Results

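Cytosolic ribosomal protein genes encode the proteins of the ribosome that works outside the mitochondria. They were taken from the gene table by symbol, as every gene whose symbol begins with Rpl or Rps followed by a digit (or by p and a digit) together with Rpsa, without the ribosomal S6 kinases and without pseudogene symbols. The rule gave 86 of the 21705 genes in the table. Of these, 31 encode proteins of the small (40S) subunit, 46 encode proteins of the large (60S) subunit, 8 are paralogs of such genes and 1, Rps19bp1, encodes a nucleolar protein that binds Rps19 and is not part of the ribosome. The subunit proteins assemble with ribosomal RNA, largely in the nucleolus, and most are present once in each ribosome. Their transcripts are among the most abundant in most cells. In mammals many of them begin with a run of pyrimidines, the 5′ terminal oligopyrimidine (TOP) motif, through which mTORC1 and Larp1 control their translation together. A member of the family, Rps9, was the normaliser of the gene expression RT-qPCR in the study, so its level in each liver has a use of its own.

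The 12 livers came from female C57BL/6J mice, 10 to 12 weeks old, that were given either saline (6 mice) or LNA29 (6 mice) through the tail vein. LNA29 is a mixture of locked nucleic acids, synthetic oligonucleotides that bind a microRNA and block it, against miR-29a and against miR-29b/c, at 20 mg/kg each. All mice, of either group, were fasted for 18 h before the livers were collected on day 7. Each liver was sequenced as 1 library of polyadenylated RNA from whole tissue, in which fewer cells of a type and less RNA per cell cannot be told apart. The comparison with saline shows the treatment as a whole, since no other LNA is among the libraries analysed here.

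The deposited values are scaled to the upper quartile of each library, and 1 read was worth between 9.80 and 24.4 in this unit. The livers had between 7696081 and 19062437 reads on genes, and albumin, the main product of hepatocytes, took between 35.7% and 46.9% of the summed values. MicroRNAs were not in the table. Col3a1, a collagen gene that miR-29 is known to repress, ranged from 158 to 317 with saline and from 341 to 938 with LNA29 (limma adjusted p = 0.0438, n = 6 each). A pair of livers stood apart in the ribosomal protein genes, saline replicate 49 at the low end and LNA29 replicate 48 at the high end, and results that rest on them are given with and without them.

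The miR-29 family members share their seed, the bases that pair with a target, which is why the 3 mature sequences are shown with bases 2 to 8 in capitals (RefSeq, GRCm38.p6).
mmu-miR-29a-3p: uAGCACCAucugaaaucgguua
mmu-miR-29b-3p: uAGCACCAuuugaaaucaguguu
mmu-miR-29c-3p: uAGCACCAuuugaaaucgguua
The complement of this seed, TGGTGCT, was searched on the transcript strand of 3′ UTRs. Ribosomal protein transcripts have short 3′ UTRs, with a median of 87 bases over the 85 genes that have one, against a median of 937 bases over 12027 tested genes. The complement was present in 4 of the 85 genes (4.71%) and in 1654 of the 12027 tested genes (13.8%). The 4 genes were Rps15a with 4 matches, Rps3 with 2, Rpl5 with 1 and Rps20 with 1, and a match is a run of letters and not a shown site. The matches of Rps3 and Rpl5, a pair of genes whose values are given below, are printed with 8 bases on either side and the match in capitals (GENCODE release M21, GRCm38).
Rps3 upstream match: tttggtttTGGTGCTcttgatgg
Rps3 downstream match: agcctggcTGGTGCTcaaaggct
Rpl5 match: tgaacaacTGGTGCTaatccatg
The matches of Rps3 lie at chr7:99478711-99478717 and chr7:99478117-99478123 on the minus strand, and that of Rpl5 lies at chr5:107908421-107908427 on the plus strand. All 3 are in the annotated 3′ UTR of the chosen transcript. The log2 fold changes of the 4 genes, without a call in any of them, were 0.33 in Rps15a, 0.24 in Rps3, 0.30 in Rpl5 and 0.17 in Rps20 (limma adjusted p = 0.839, 0.874, 0.793 and 0.929).

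Runs of pyrimidines were looked for in the 30 bases around the annotated transcription start, 15 on each side. A run was at least 8 letters that are each C or T on the strand of the gene. It could lie anywhere in the window and did not have to begin at the start, as the TOP motif does. Of the 65 genes with a RefSeq start (GRCm38.p6), 25 (38.5%) had such a run, against 11.9% of the 27025 genes of all kinds with a start. The windows of 8 genes that the results turn on are shown, with the longest run of pyrimidines in capitals. The start lies after the 15th letter.
Rps9: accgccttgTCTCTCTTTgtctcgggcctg
Rps6: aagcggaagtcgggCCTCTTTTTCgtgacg
Rps28: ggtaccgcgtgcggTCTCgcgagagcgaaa
Rplp0: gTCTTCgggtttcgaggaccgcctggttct
Rpl4: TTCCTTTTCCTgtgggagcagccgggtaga
Rpl10a: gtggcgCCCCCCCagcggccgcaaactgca
Rpl13a: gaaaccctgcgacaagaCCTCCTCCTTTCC
Rpl35a: gcggggcgtgcgTCCCacaaggccgcgcgg
Rps9 lies at chr7:3704026-3704055 (plus strand), Rps6 at chr4:86857353-86857382 (minus), Rps28 at chr17:33824548-33824577 (minus) and Rplp0 at chr5:115559452-115559481 (plus). Rpl4 lies at chr9:64173372-64173401 (plus), Rpl10a at chr17:28328456-28328485 (plus), Rpl13a at chr7:45128731-45128760 (minus) and Rpl35a at chr16:33056438-33056467 (plus). In Rps9, Rps6, Rpl4 and Rpl13a the run was 9, 10, 11 and 13 letters long. The run of Rpl4 lay wholly before the annotated start and that of Rpl13a wholly after it. In Rps28, Rplp0, Rpl10a and Rpl35a no run of 8 letters was found in this window. Having such a run or not does not settle whether a transcript carries a TOP motif.

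No ribosomal protein gene passed the test between LNA29 and saline livers after adjustment. Of the 86 genes, 83 had a mean of at least 10 and were tested, and limma gave an adjusted p under 0.05 to 0 of the 83 and to 0.16% of all 12486 tested genes. The lowest adjusted p was 0.567. At an unadjusted p under 0.05 limma called 1 of the 83, Rps27a, against 7.91% of all tested genes, and the exact permutation test called 0, against 8.5%. In 0 of the 83 genes did the groups not overlap, against 0.985% of all tested genes. The direction of the means was nevertheless shared. The LNA29 mean was higher on the log2 scale in 77 of 83 genes and in 38.6% of all tested genes, and the median log2 fold change was 0.21, against -0.09 over all tested genes. With each library scaled to its summed value the median was 0.09, against a median of -0.21 over all tested genes. The 95% interval of a single gene had a median half-width of 0.54 on the log2 scale.

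The single livers differed widely within each group. In each liver the median deviation of the 83 genes from their own means over the 12 livers was taken. In saline livers it was -0.55, 0.03, 0.49, -0.998, 0.04 and 0.35 in replicates 43, 45, 47, 49, 51 and 53. In LNA29 livers it was -0.29, -0.05, 0.94, 0.05, 0.08 and 0.03 in replicates 44, 46, 48, 50, 52 and 54. The saline livers thus spread from below to above 5 of the 6 LNA29 livers, and the 6th, replicate 48, lay above all others. Saline replicate 49 was the lowest of the 12 livers in 77 of 83 genes, and LNA29 replicate 48 was the highest in 70. The small and the large subunit followed the same course, with -1.02 and -1.05 in saline replicate 49 and 0.94 and 0.95 in LNA29 replicate 48.

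**Figure D1:**
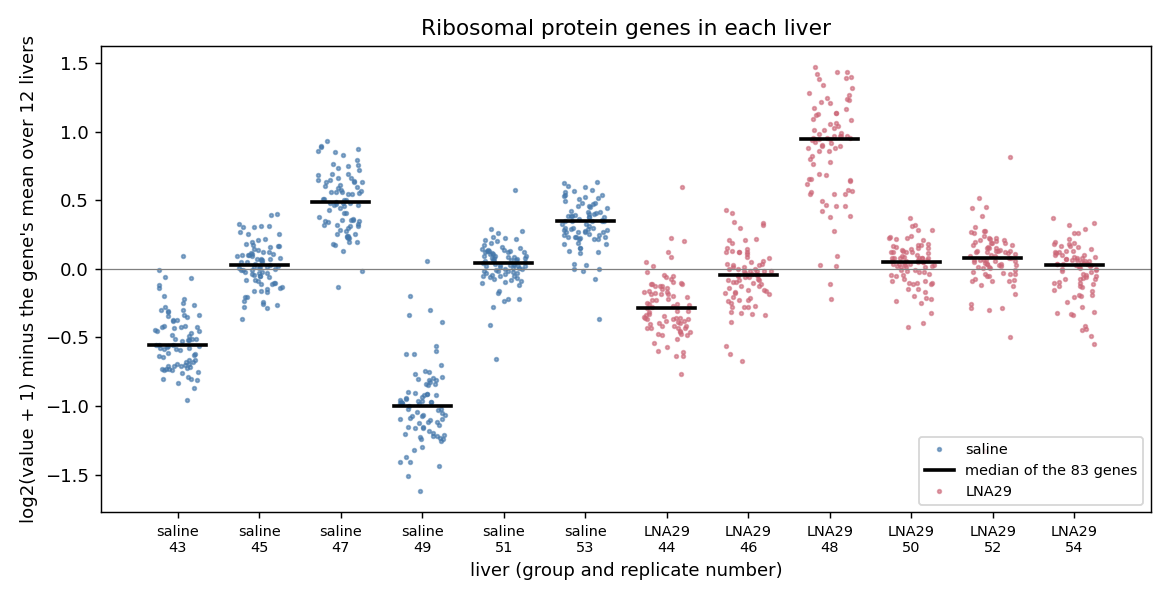
Each point is 1 of 82 tested ribosomal protein genes (Rps29, with few reads, is left out) in 1 liver, as log2(value + 1) minus the gene's mean over the 12 livers, and the black bars are the medians over all 83 tested genes. The median was lowest in saline replicate 49 (-0.998) and highest in LNA29 replicate 48 (0.94), with the other livers of both groups between -0.55 and 0.49.

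When both livers were left out, an alternative chosen after seeing the data, the 83 genes had a median log2 fold change of -0.12 in place of 0.21 and 17 genes in place of 77 had the higher mean in LNA29 livers, against a median of -0.06 and 43.7% of all tested genes. Limma called 0 of the 83 after adjustment, against 0.344% of all tested genes, and 1 without it, against 10.6%. The 1 was Rps2, with a log2 fold change of -0.30. Ribosomal protein transcripts are short, and the 705 other tested genes with transcripts under 1000 bases had a median log2 fold change of -0.19 in this fit. Leaving out only saline replicate 49 gave a median of 0.03, and leaving out only LNA29 replicate 48 gave 0.06. In the fit without a covariate the direction of the family therefore rested on these livers.

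As a share of the summed values of a library, the 86 genes together took 0.197% at the lowest, 0.276% at the median and 0.309% at the highest in saline livers, and 0.199%, 0.274% and 0.519% in LNA29 livers. The group means were 0.270% ± 0.041 and 0.299% ± 0.113 (SD, n = 6 each), a difference smaller than either SD. LNA29 replicate 48, with 0.519%, was again far above the rest. Saline replicate 49, with 0.281%, was in the middle of its group on this scale, and its summed values were 82180800, against 157344000 to 216449000 in the other 11 livers. Without LNA29 replicate 48 the LNA29 mean was 0.255%, below the saline mean.

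Rps9, a 40S protein, ranged from 8200 through a median of 16568 to 23193 in saline livers and from 12888 through 18827 to 38811 in LNA29 livers. The groups overlapped, and the highest value, in LNA29 replicate 48, was 4.73 times the lowest, in saline replicate 49. The log2 fold change was 0.42 ± 0.26 (SE; limma adjusted p = 0.758, exact permutation p = 0.219, n = 6 each), with a 95% interval from -0.13 to 0.97. Without both extreme livers it was 0.05.

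Rps6, the 40S protein that S6 kinases phosphorylate, lay between 6450 and 18281 in saline livers (median 13820) and between 11788 and 21132 in LNA29 livers (median 13290). Rpsa, known also as the laminin receptor, lay between 6750 and 19702 (median 13037) and between 9538 and 29019 (median 14570). The groups overlapped in both genes, with LNA29 replicate 48 above and 2 saline livers below all livers of the other group, and had log2 fold changes of 0.21 ± 0.22 and 0.33 ± 0.27 (limma adjusted p = 0.878 and 0.834). Rps3, a protein at the entry of the mRNA channel, was the second most abundant member by deposited value. It lay between 15210 and 39649 in saline livers (median 26932) and between 21688 and 51000 in LNA29 livers (median 27847), and its log2 fold change was 0.24 ± 0.24. Rps2, its neighbour in the 40S subunit, ranged from 11520 to 25684 (median 24140) and from 15780 to 29076 (median 20240), a log2 fold change of -0.03 ± 0.20. It was the only one of the 31 small subunit genes with a lower mean in LNA29 livers, and the sign turned with the common median scaling, with the length covariate and without any of 6 single livers.

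The small subunit also held 4 of the 6 genes with the smallest unadjusted p among those with the higher mean in LNA29 livers, and none of the 6 passed adjustment. Rps27a is made as a fusion with ubiquitin, which is cut off to leave the ribosomal protein. It lay between 1540 and 4035 in saline livers (median 3165) and between 3175 and 8226 in LNA29 livers (median 3709), so that all LNA29 livers were above 3 of the saline livers and 2 were above all of them. Its log2 fold change was 0.58 ± 0.25 (limma unadjusted p = 0.0325, adjusted p = 0.567, exact permutation p = 0.0823), and it was 0.21 without both extreme livers. Rps3a lay between 2130 and 5441 (median 3965) and between 3912 and 6566 (median 4495), with 0.38 ± 0.21 (limma adjusted p = 0.707). Rps12, with only 23 to 42 reads a liver, lay between 240.0 and 571 (median 395) and between 453 and 698 (median 495), with 0.39 ± 0.23 (limma adjusted p = 0.729).

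Among large subunit genes, Rplp0, which anchors the acidic stalk on which elongation factors land, lay between 9430 and 27930 in saline livers (median 19353) and between 14688 and 28962 in LNA29 livers (median 17961). Its log2 fold change was 0.10 ± 0.24 (limma adjusted p = 0.960). Rpl5 and Rpl11 carry the 5S ribosomal RNA into the 60S subunit and, outside the ribosome, bind Mdm2. Rpl5 lay between 2716 and 6420 (median 5200) and between 4716 and 8245 (median 5447), a log2 fold change of 0.30 ± 0.20. Rpl11 lay between 1460 and 5982 (median 3656) and between 2512 and 6962 (median 3499), a log2 fold change of 0.21 ± 0.29. In all 3 genes the medians of the groups were closer than the livers within a group.

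The most abundant members by deposited value, beside Rps3 and Rps2, were of the large subunit. Rpl4, whose extension lines the exit tunnel, lay between 16870 and 42105 in saline livers (median 29994) and between 24146 and 42321 in LNA29 livers (median 27376). Its log2 fold change was 0.05 ± 0.22. Rpl13a lay between 10160 and 35596 (median 21782) and between 19025 and 56642 (median 22911), with 0.37 ± 0.30. Rpl41, the smallest ribosomal protein, lay between 9480 and 39930 (median 22179) and between 16123 and 48283 (median 20757), with 0.11 ± 0.30. For these 3 genes the limma adjusted p was 0.979, 0.830 and 0.969. Rpl23, which lay between 3060 and 6018 (median 4918) and between 5170 and 7604 (median 5417), had 0.30 ± 0.16 (limma adjusted p = 0.719). Rpl35a lay between 810.0 and 2439 (median 1915) and between 1638 and 4170 (median 2051), with 0.47 ± 0.27 (limma adjusted p = 0.726).

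Only 6 of the 83 genes had the lower mean in LNA29 livers, among them 4 of the 46 large subunit genes. Rpl7 lay between 3480 and 5569 in saline livers (median 4799) and between 3038 and 4904 in LNA29 livers (median 4167), a log2 fold change of -0.15 ± 0.15 (limma adjusted p = 0.872). Rpl30 lay between 650.0 and 1016 (median 930) and between 698 and 927 (median 830), also -0.15 ± 0.16 (limma adjusted p = 0.878). Rpl3, a protein near the catalytic centre, lay between 2580 and 3814 (median 3339) and between 2642 and 4205 (median 3077), with -0.05 ± 0.15. Rpl31, on the rim of the exit tunnel, lay between 397 and 1206 (median 905) and between 487 and 1523 (median 735), with -0.06 ± 0.30. The signs of Rpl3 and Rpl31 turned without some single livers. The signs of Rpl7 and Rpl30 were the same in every fit without 1 liver, where the log2 fold change ranged from -0.23 to -0.07 and from -0.24 to -0.11. By subunit, 30 of 31 small subunit genes and 42 of 46 large subunit genes had the higher mean in LNA29 livers, with median log2 fold changes of 0.25 and 0.20.

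**Figure D2:**
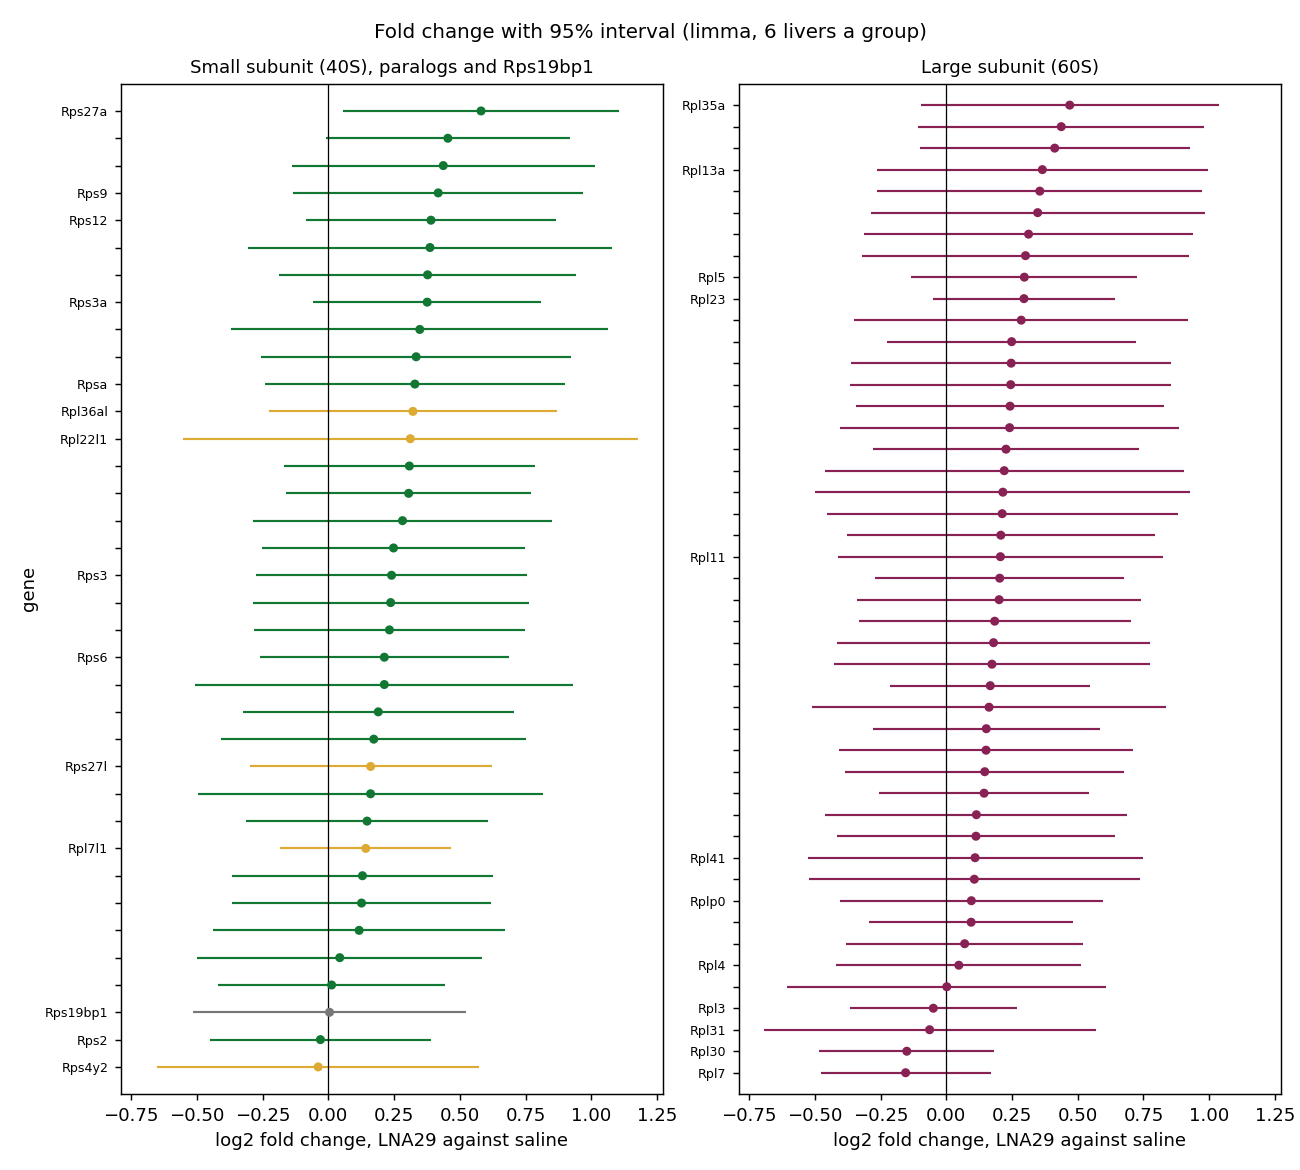
Points are log2 fold changes of LNA29 against saline livers (x axis) for 82 tested genes, one a row and with its symbol where the text names it by a fixed rule (Rps29 is left out), and lines are 95% intervals from limma with 6 livers a group. Green marks the small subunit, purple the large subunit, yellow the paralogs and grey Rps19bp1, and the interval excludes 0 only for Rps27a (0.05 to 1.11).

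**Figure D3:**
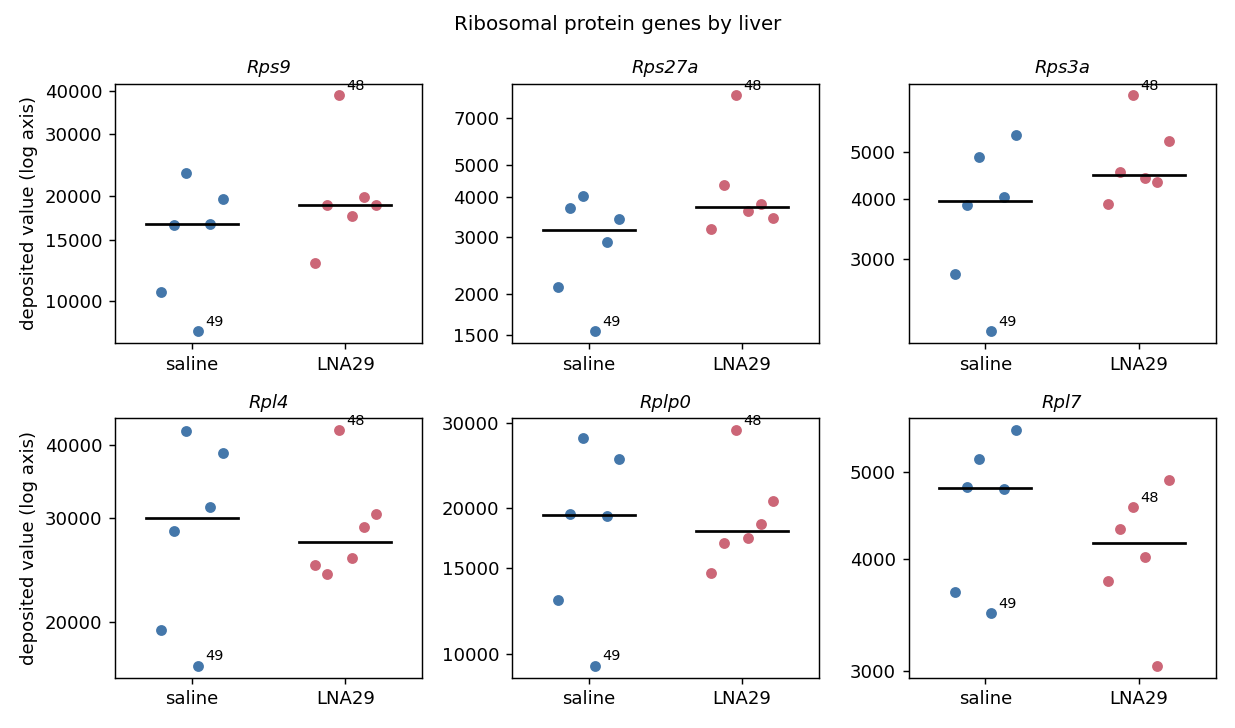
Points are the deposited values of single livers on a log axis of its own in each panel, and bars are the group medians. Saline replicate 49 and LNA29 replicate 48 are numbered: they are the lowest and the highest of the 12 livers in Rps9, Rps27a, Rps3a, Rpl4 and Rplp0 but not in Rpl7.

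Of the 8 paralogs, 5 were tested. Rpl36al, close to Rpl36a in sequence, lay between 2696 and 8877 in saline livers (median 5890) and between 5026 and 12076 in LNA29 livers (median 7064), a log2 fold change of 0.32 ± 0.26. Rps27l, which p53 is known to induce, lay between 1610 and 4105 (median 2952) and between 2138 and 4208 (median 3060), with 0.16 ± 0.22. Rpl7l1 lay between 1516 and 2714 (median 2170) and between 2055 and 3024 (median 2311), with 0.14 ± 0.15. Rpl22l1, the paralog of Rpl22, was low at 60.6 to 127 (median 92.9) and 37.7 to 245 (median 117), which is 2 to 13 reads a liver, with 0.31 ± 0.41. Rps4y2 lay between 260.0 and 895 (median 532) and between 275 and 585 (median 495), with -0.04 ± 0.29. The sign of Rps4y2 turned in several alternatives. The limma adjusted p of the 5 genes was between 0.828 and 0.986. The remaining paralogs were at or near the listed minimum of 1, which stands for a gene without reads. Rpl10l, known from testis, was listed at 1 in all 12 livers, Rpl3l, known from muscle, had at most 1 read and Rpl39l at most 2 reads in any liver. Rps19bp1 lay between 420.0 and 1175 (median 723) and between 563 and 981 (median 746), with 0.00 ± 0.25 (limma adjusted p = 0.996).

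The genes of the family moved together over the 12 livers. The median Pearson r over all pairs of the 83 genes was 0.89, and the first principal component took 80.5% of their variance around the gene means, against 20.4% for all 12486 tested genes. For the 75 mitochondrial ribosomal protein genes, which serve the other ribosome of the cell, the median r was 0.36 and the first component took 48.2%. For 18 translation factors and partners known to carry a TOP motif, the median r was 0.58 and the first component took 64.9%. These are descriptions over 12 libraries, and all genes of a library share its scaling. In 64 of the 83 genes the correlation with the family median was at least 0.9, with the highest in Rps24 (0.995). Over the 10 livers without saline replicate 49 and LNA29 replicate 48, the median r was 0.74, the first component took 60.3% (18.4% for all tested genes) and 33 of the 83 genes had an r of at least 0.9 with the family median. The mitochondrial genes then had a median r of 0.31 and a first component of 41.0%.

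A few members kept apart from this course, chosen here after their values were seen. Rpl3, Rpl22l1, Rpl30 and Rpl7l1 had an r with the family median under 0.5, from 0.24 in Rpl3 to 0.44 in Rpl7l1. Rpl22l1 had only 2 to 13 reads a liver, which limits its r. Rpl3 and Rpl30 stayed within a 1.63-fold and a 1.56-fold range over the 12 livers and Rpl7 within a 1.83-fold range. The median range over the 83 genes was 3.84-fold, and 2.18-fold over the 10 livers without the extreme ones. Over these 10 livers the r of Rpl3, Rpl22l1, Rpl30 and Rpl7l1 was 0.30, 0.09, 0.15 and 0.54, and 7 genes were under 0.5.

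The position of a liver followed its trend with transcript length. Ribosomal protein transcripts are short, with a median of 802 bases over the 86 genes against 2864 bases over 12217 tested genes. For each liver, the deviations of all other tested genes from their group mean were ranked against transcript length. This Spearman rho was 0.26, -0.07, -0.32, 0.48, -0.20 and -0.27 in saline replicates 43, 45, 47, 49, 51 and 53, and 0.27, 0.08, -0.23, 0.02, -0.10 and 0.09 in LNA29 replicates 44, 46, 48, 50, 52 and 54. A positive value means that short transcripts were low in that liver. Over the 12 livers the median deviation of the 83 genes from the group mean fell with rho (Pearson r = -0.94, Spearman rho = -0.96, permutation p = 2e-05 and 4e-05, adjusted over 2 relations 4e-05 and 8e-05). Without the 2 livers farthest out in the trend, saline replicates 47 and 49, r was -0.89, without saline replicate 49 and LNA29 replicate 48 it was -0.96, and within saline and LNA29 livers it was -0.99 and -0.89. The relation with the number of reads did not pass (Pearson r = 0.33, Spearman rho = 0.46, permutation p = 0.299 and 0.133, the same after adjustment), and it was 0.77 within saline and -0.42 within LNA29 livers.

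The 705 other tested genes under 1000 bases moved the same way by liver, with a median deviation from the group mean of -0.56 in saline replicate 49 and 0.45 in LNA29 replicate 48, where the ribosomal protein genes had -0.87 and 0.81. With all 12 livers their median log2 fold change between the groups was 0.01, and 51.2% had the higher mean in LNA29 livers. What sets the length trend of a library was not tested.

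**Figure D4:**
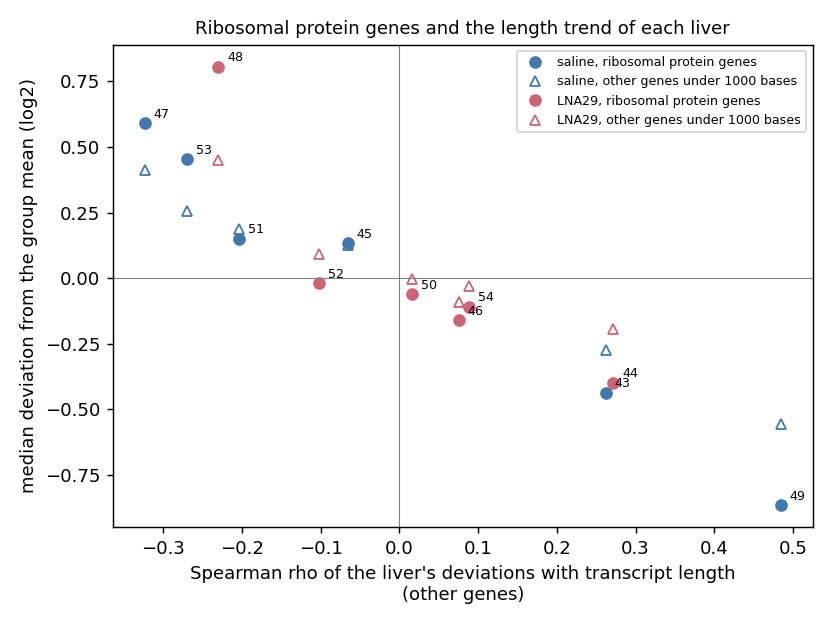
For each liver, the x axis is the Spearman rho of its deviations with transcript length over all other tested genes, and the y axis is the median deviation from the group mean on the log2 scale. Filled points are the 83 ribosomal protein genes (numbered by replicate) and open triangles the 705 other genes under 1000 bases, and both fall from upper left to lower right with saline replicate 49 at the end (-0.87 and -0.56).

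With the length trend of each liver as a covariate, some members passed. As covariate the rho was taken over all tested genes with a known length, the 83 included (0.49 in saline replicate 49). Its deviations were from the group mean, so its mean was close to equal, -0.020 in saline and 0.022 in LNA29 livers. It takes out spread within the groups and cannot correct for a length difference between them. The SE of Rps9 was 0.12 with it, against 0.26 without it. The length trend was taken from the same values, and its spread over the livers left the SE but not the fold change. The p-values of this fit can therefore be too small. Limma then called 7 of 83 genes after adjustment, all higher in LNA29 livers, against 1.76% of all tested genes, and 41 of 83 at an unadjusted p under 0.05, against 13.8%. Among the 7 were Rps27a with a log2 fold change of 0.65 (adjusted p = 0.0285), Rpl35a with 0.55 (0.0325), Rpl10a with 0.49 (0.0380), Rps28 with 0.52 (0.0409), Rps9 with 0.50 (0.0458) and Rps3a with 0.44 (0.0478). Rpl10a, a 60S protein, ranged from 1670 to 4775 with saline and from 2612 to 6094 with LNA29. Rps28, a 40S protein, had values between 1240 and 3947 and between 2175 and 5604.

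These calls also depended on the extreme livers. With the covariate but without saline replicate 49, limma called 1 gene, against 1.16% of all tested genes, and 34 at an unadjusted p under 0.05, against 13.9%. Without LNA29 replicate 48 it called 2, among them Rps27a (adjusted p = 0.0347), against 1.78%, and 26 without adjustment, against 13.8%. Without both livers it called 0, against 0.969%, and 17 without adjustment, against 12.6%. With the covariate the median over the family was 0.30 on the log2 scale, and 0.16 without both livers. In that last fit 71 of 83 genes had the higher value in LNA29 livers, against 40.5% of all tested genes. The covariate was not centred again where livers were left out. Its mean was -0.123 in saline livers without replicate 49 and 0.074 in LNA29 livers without replicate 48. The covariate fits without these livers therefore also shifted the difference between the groups. For the mitochondrial ribosomal protein genes, with a median transcript of 1226 bases, the median log2 fold change was -0.04 without and -0.01 with the covariate, and 0 of 75 passed adjustment in either fit.

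**Figure D5:**
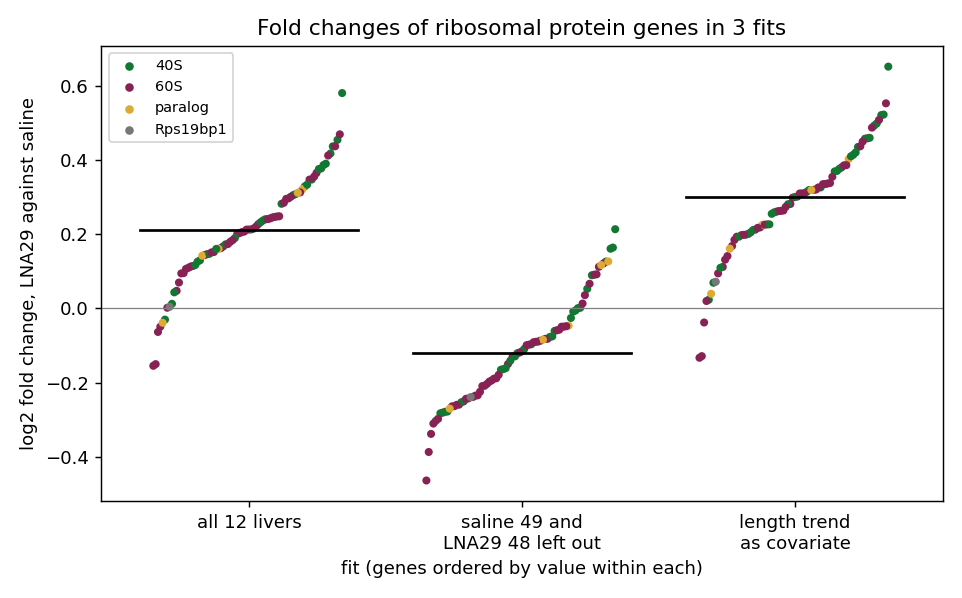
Points are log2 fold changes of LNA29 against saline for 82 ribosomal protein genes (Rps29 is left out), ordered by value within each of 3 fits, and bars are the medians over all 83. The median was 0.21 with all 12 livers, -0.12 with saline replicate 49 and LNA29 replicate 48 left out, and 0.30 with the length trend as covariate.

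Each gene was also set against the rest of its family, by taking from each liver the median deviation of the 83 genes, which moved the median log2 fold change of all tested genes to -0.33. Limma then called 0 of 83 genes, adjusted or not, against 0% of all tested genes with adjustment and 5.79% without it. The exact permutation test had an unadjusted p under 0.05 in 9 of 83 genes, against 6.94% of all tested genes on this scale, and 8 of them are given here. Rps27a was higher relative to the family by 0.34 on the log2 scale (exact permutation p = 0.00866), Rpl35a by 0.23 (p = 0.00649, exact permutation), Rps28 by 0.20 (p = 0.0260, exact permutation) and Rps9 by 0.18 (p = 0.0173, exact permutation). Rpl21, Rps7, Rpl4 and Rplp0 were lower relative to it by values of -0.23, -0.22, -0.19 and -0.14 (exact permutation p = 0.0195, 0.0498, 0.0455 and 0.0346). None of these values is adjusted, and 0.00216 is the smallest p the 924 divisions of 12 livers allow. Without both extreme livers the values were 0.32 for Rps27a, 0.20 for Rpl35a, 0.19 for Rps28 and 0.16 for Rps9. They were -0.28 for Rpl21, -0.15 for Rps7, -0.10 for Rpl4 and -0.10 for Rplp0.

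Other genes of protein synthesis were described as lists. The 18 translation factors and partners whose transcripts are known to carry a TOP motif, such as Eef1a1 and Tpt1, had a median log2 fold change of 0.07, with 15 higher. The 39 tested genes of ribosome biogenesis, such as the nucleolar proteins Ncl and Fbl, had 0.12, with 31 higher. The 14 genes of RNA polymerase I and its factors had 0.02, with 8 higher, and the 20 genes around mTORC1 and the TOP motif, such as Mtor and Larp1, had -0.09, with 6 higher. Fau, a ribosomal protein made as a fusion and not covered by the symbol rule, had 0.30. In these lists 0 genes passed adjustment in either direction, against 0.16% of all tested genes. At an unadjusted limma p under 0.05 there was 1 higher and 1 lower, against 7.91% of all tested genes called. They were Nip7 in ribosome biogenesis (log2 fold change 0.53, limma adjusted p = 0.560) and Tsc2 in the mTORC1 list (-0.36, limma adjusted p = 0.621). The median deviation of the TOP factors by liver was -0.53 in saline replicate 49 and 0.27 in LNA29 replicate 48, the lowest and the highest of the 12. That of the mitochondrial ribosomal protein genes was -0.45 and 0.26 in these livers, also the lowest and the highest, so this course was not particular to TOP genes.

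Markers of liver cell types were read in the same libraries. The 10 hepatocyte markers had a median log2 fold change of 0.07, with 0 called. Their summed values ranged from 34704300 to 115164000 in saline livers and from 82696600 to 98603800 in LNA29 livers. Albumin alone ranged from 29304000 to 98695000 and from 70603700 to 86994600, so these sums are mostly albumin. The median deviation of the 10 hepatocyte markers was -0.65 in saline replicate 49 and between -0.11 and 0.25 in the other livers. The median was -0.06 for 10 stellate cell markers with 1 called, Col3a1, -0.24 for 10 endothelial and -0.19 for 9 Kupffer cell markers, and 0.17 for 6 tested bile duct and -0.22 for 6 tested blood and lymphoid markers, with 0 called in each. The summed blood and lymphoid markers ranged from 2562 to 6861 in saline livers and from 2885 to 18243 in LNA29 livers. Their median deviation was highest in LNA29 replicates 48 and 52 (1.02 and 1.17), and the ribosomal protein genes were at 0.94 and 0.08 there. In each list 0 markers were at the listed minimum in every liver, and the part of these cells in the levels of the ribosomal protein genes was not tested.

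Levels can be compared between genes only per length. Per 1000 bases of the chosen GENCODE transcript, the 77 subunit genes had a median mean level of 4489 over the 12 livers, with Rpl41 (40309), Rplp1 (27600) and Rps9 (24582) at the top. At the bottom were Rps29 (76.4), Rps15a (137), Rpl12 (281) and Rps27 (590). The listed levels thus differed by 528-fold, while most of these proteins are used once in a ribosome (Rplp1, with Rplp2, is used more than once). Rps29 had between 0 and 8 reads a liver. Rps15a was divided by a transcript of 5179 bases with a long 3′ UTR, so its level depends on that choice. At the coding sequence, 78 of 85 genes had at least 1 other annotated gene of at least 95% identity over 90% of its length and 44 of 85 had 5 or more, with 56 for Rpl21. The 44 subunit genes with 5 or more copies had a median level of 3862 per 1000 bases, and the 33 with fewer had 5307. How reads were shared between these genes and their copies is not given in the sources used here, and the levels of single genes are uncertain to that extent. In 7 genes, Rpl36al, Rpl26, Rpl5, Rpl18, Rps25, Rpl31 and Rpl34, values in at least 1 liver were not whole multiples of 1 read (within 0.02 reads).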

How the data were processed

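Polyadenylated RNA of 6 saline and 6 LNA29 livers had been sequenced as single reads. The authors used MapSplice2 for mapping and RSEM for the expression of each gene, and deposited 1 table of signal values, scaled so that the upper quartile of each library came to 1000, with a gene without reads listed at 1. The submitters' processing notes name mm9. Group means (signal), a score (the signed ratio of the group means) and a p-value from a one-tailed test, all computed by the authors and deposited beside them, were not used, nor were 2 unnamed columns of values.

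Members and gene lists were chosen with earlier results of these data known. Values were tested on log2(value + 1) in R 4.3.3 with limma 3.58.1, its variance trend included, on 12486 genes whose mean reached 10, and p-values were adjusted by Benjamini-Hochberg at 0.05. Fold changes are on this scale, and where a liver is listed at 1 they depend on the pseudocount. Single genes were also tested by exact permutation of the livers, two-sided (Python 3.11.15, numpy 2.4.6, scipy 1.17.1, pandas 2.3.3). Relations across livers used 100000 permutations. The worth of 1 read was found as the step of which 92.2% to 93.9% of a library's values are whole multiples (within 0.02 reads), and depth was between 7696081 and 19062437 reads, which limits only the low genes. The planned count tests were not run, since these shares are too low for whole reads. Lengths, coding sequences and 3′ UTRs came from 1 transcript a gene in GENCODE M21 (GRCm38), which is not the build of the authors. Near-identical genes were found with BLAST+ 2.17.0. Ribosomal protein genes were named in the text if they were Rps9, Rps6, Rpsa, Rplp0, Rpl5 or Rpl11, 1 of the 5 with the highest mean, past an adjusted p of 0.05, 1 of the 6 with the smallest unadjusted p in each direction, a detected paralog, or outside both subunits and the paralogs, and with a mean under 10 by their values only. Some genes that this rule or a list holds are not reported here. Others were added after their values were seen, for being called in an alternative or at an end of a range. Alternatives were pseudocounts of 0.1 and 10, other filters and scalings, the length trend as covariate, and leaving out each liver. Leaving out both extreme livers, alone or with the covariate, and scaling to the family median were added after seeing the data. Each liver is taken as 1 mouse, as the labels give it.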

Additional observations from a re-analysis of the deposited data

Results flagged for a closer look

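Values of single livers that stood far from the other 5 of their group by Dixon's criterion came up in 10 of the 58 groups of 6 values examined, where chance gives about 2.9, and the genes are not independent of one another. In LNA29 replicate 48 the log2 value was 14.37 in Rps6 (13.53 to 13.76 in the other 5 livers), 15.79 in Rpl13a (14.22 to 14.61) and 15.56 in Rpl41 (13.98 to 14.45). It was 13.01 in Rps27a (11.63 to 12.08), 12.89 in Rpl23 (12.34 to 12.45) and 12.03 in Rpl35a (10.68 to 11.14). In the same liver the median deviation of the 83 tested genes was 0.94 (-0.29 to 0.08 in the others) and the share of the summed values was 0.519% (0.199% to 0.298%). In saline replicate 49 the log2 value of Rpl30 was 9.35 (9.83 to 9.99 in the other 5 saline livers). In LNA29 replicate 46 that of Rpl7l1 was 11.56 (11.01 to 11.21 in the others).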

How the results depend on the processing

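Pseudocounts of 0.1 and 10, no filter or a mean of at least 100, and the common median scaling moved no count and no median past its margin. Of the alternatives for single named genes, 533 kept sign and side of the threshold, 58 turned the sign and 7 passed the threshold. No gene that turned had passed adjustment in either fit. Scaling to the summed value gave 0 genes at an unadjusted p under 0.05 in place of 1, the length covariate gave 41, and leaving out 1 liver gave 0 to 7. With the covariate, 34 were left without saline replicate 49, 26 without LNA29 replicate 48 and 17 without both. After adjustment the covariate gave 7 genes in place of 0, 1 without saline replicate 49 and 2 without LNA29 replicate 48, and leaving out 1 liver without the covariate gave 0. The log2 fold change of Rps9 was 0.50 with the covariate and then passed, though the p-values of that fit can be too small. Without 1 liver the fold change was 0.22 to 0.55. The median log2 fold change was 0.03 to 0.33 without 1 liver and -0.12 without both extreme livers. The difference in the share of the summed values (0.030 percentage points) was 0.071 without albumin in the sum, -0.014 to 0.050 without 1 liver, lowest without LNA29 replicate 48, and -0.012 without both extreme livers. The cause of these changes was not tested.

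The sign of single genes turned with the common median in Rps2 (0.015) and Rps4y2 (0.0067), and with the summed value in Rplp0 (-0.024), Rpl4 (-0.072), Rpl41 (-0.010) and Rps19bp1 (-0.11). With the length covariate it turned in Rps2 (0.023), Rpl31 (0.020) and Rps4y2 (0.039). With the covariate and without saline replicate 49 Rpl31 was at 0.023 and Rps4y2 at 0.073, without LNA29 replicate 48 Rpl3 was at 0.027 and Rps4y2 at 0.087, and without both Rpl41 was at -0.067 and Rps4y2 at 0.16. Without both livers and no covariate the values were -0.087 in Rps6, -0.026 in Rpsa, -0.21 in Rplp0, -0.20 in Rpl11, -0.21 in Rpl4, -0.061 in Rps3, -0.057 in Rpl13a, -0.34 in Rpl41, -0.047 in Rpl36al, -0.084 in Rps27l and -0.24 in Rps19bp1. Without 1 liver the values ranged from -0.089 to 0.22 in Rplp0, -0.022 to 0.38 in Rpl11, -0.098 to 0.17 in Rpl4, -0.12 to 0.30 in Rpl41, -0.20 to 0.044 in Rps2, -0.13 to 0.0055 in Rpl3, -0.26 to 0.065 in Rpl31, -0.21 to 0.14 in Rps4y2 and -0.15 to 0.15 in Rps19bp1.

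No paired analysis was possible because the groups share no replicate number. The planned count models, edgeR and DESeq2, were not run, since too few values were whole reads. Depth limits the genes of a few reads, such as Rps29, Rpl22l1 and Rps12.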
